A study of Saccharomyces cerevisiae with 26 samples.

Results

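Yeast cells that carried a cysteine at position 110 of histone H3 were compared with and without GSH1, the gene for γ-glutamylcysteine synthetase, the enzyme that opens glutathione synthesis. The comparison used 6 of the 26 samples of the series, namely the 3 H3A110Cgsh1Δ and the 3 H3A110C libraries grown in SCEG, a synthetic complete medium with ethanol and glycerol in place of glucose, on which yeast must respire. Both strains were Saccharomyces cerevisiae haploids derived from BY4741 with the alleles MATa, his3Δ1, leu2Δ0, met15Δ0 and ura3Δ0, and both carried the A110C substitution in the 2 chromosomal histone H3 genes, HHT1 and HHT2, under their natural promoters. H3A110Cgsh1Δ differed from H3A110C by replacement of GSH1 with a KanMX6 cassette. The labels name 1 strain of each genotype, so the 3 libraries are repeat samples of 1 strain each, and p-values measure the spread between such samples. The study's methods describe RNA from independent experiments, more of them than the 3 libraries per strain given here. Yeast without GSH1 cannot make glutathione, and SCEG contains none, so both strains that lack GSH1 depend on supplied glutathione for growth in it. Whether it was added to the cultures taken for RNA, and to which strains, is not given in the sources used here, so the deletion and any such difference in the medium cannot be told apart. The 3 gsh1Δ and 3 WT libraries grown in the same medium, which have the same auxotrophies and unaltered histone H3, were used only to test where the response differed between the histone backgrounds.

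Glutathione is a tripeptide thiol that buffers the redox state of the cell and, bound to monothiol glutaredoxins, helps to carry iron-sulfur (Fe-S) clusters. In budding yeast the transcription factors Aft1 and Aft2 read this supply: when mitochondrial Fe-S production or glutathione falls short, Aft1 stays in the nucleus and turns on the iron regulon, a set of genes for iron uptake at the cell surface, iron release from the vacuole and sparing of iron. Tis11, also called Cth2, is made in the same response and speeds the decay of mRNAs that encode iron-using proteins, many of them in the tricarboxylic acid (TCA) cycle and the respiratory chain.

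The libraries held between 3374100 and 6013267 counts in H3A110Cgsh1Δ cells and between 3707388 and 4455985 counts in H3A110C cells, so that 3 counts corresponded to at most 0.880 counts per 1000000 counts (CPM). CPM is a share of the RNA of a culture, so that fewer cells expressing a gene and less of its RNA per cell cannot be told apart. GSH1 had 0, 0 and 0 counts in H3A110Cgsh1Δ libraries, against 479, 533 and 692 counts in H3A110C libraries, and its level was at least 129-fold lower when the floor of 3 counts per library was used. LEU2, URA3 and MET17, which are deleted in both strains, had 0 counts in all 6 libraries, and HIS3, of which the his3Δ1 allele keeps a part, had 152, 349 and 142 counts in H3A110Cgsh1Δ and 288, 311 and 276 in H3A110C libraries. Summed over the marker list, genes of the other mating type lay at 16.8 to 21.8 CPM in H3A110Cgsh1Δ and 20.4 to 29.0 CPM in H3A110C libraries, and the a-specific genes were present in every library. Replicate 2 of H3A110Cgsh1Δ stood apart from the other libraries of its strain: its counts differed from theirs by 42.6 and 23.1 chi-square units per gene, where those 2 differed by 5.75 and the H3A110C pairs by 5.31 to 9.38. Ribosomal protein genes took 9.10% of its counts, against 7.05% and 7.01% in replicates 1 and 3 and 8.62% to 9.69% in H3A110C libraries, so the counts of called genes are also given without it where they moved clearly.

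Loss of GSH1 in H3A110C cells was accompanied by higher mRNA of nearly the whole iron uptake system and lower mRNA of Fe-S enzymes, the TCA cycle, the respiratory chain and the mitochondrial ribosome. Of 5685 genes tested with edgeR's quasi-likelihood test, 261 (4.59%) were higher and 229 (4.03%) lower in H3A110Cgsh1Δ cells at an adjusted p below 0.05, together 8.62% of the genes. The changes were uneven in size: 119 genes (2.09%) were higher but only 29 (0.51%) lower by more than 1 on the log2 scale, and the median over all genes tested was −0.01. In all 490 called genes the 3 H3A110Cgsh1Δ libraries lay outside the range of the 3 H3A110C libraries, as did 839 (14.8%) of all genes tested upwards and 761 (13.4%) downwards. The counts moved with single libraries. Without replicate 2 of H3A110Cgsh1Δ, 906 of 5714 genes tested were higher and 840 lower, and every one of the 490 calls was kept. With DESeq2 and all 6 libraries, 368 of 5835 genes were higher and 302 lower. List counts without replicate 2 or with DESeq2, given below, are to be read beside these general counts. Without replicate 1 of H3A110Cgsh1Δ the counts were 179 and 128, without its replicate 3 they were 129 and 67, and without H3A110C replicate 1, 2 or 3 they were 107 and 56, 129 and 104, or 151 and 83. All 490 genes kept their direction in each of these fits, and between 162 and 490 of them kept their call.

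**Figure D1:**
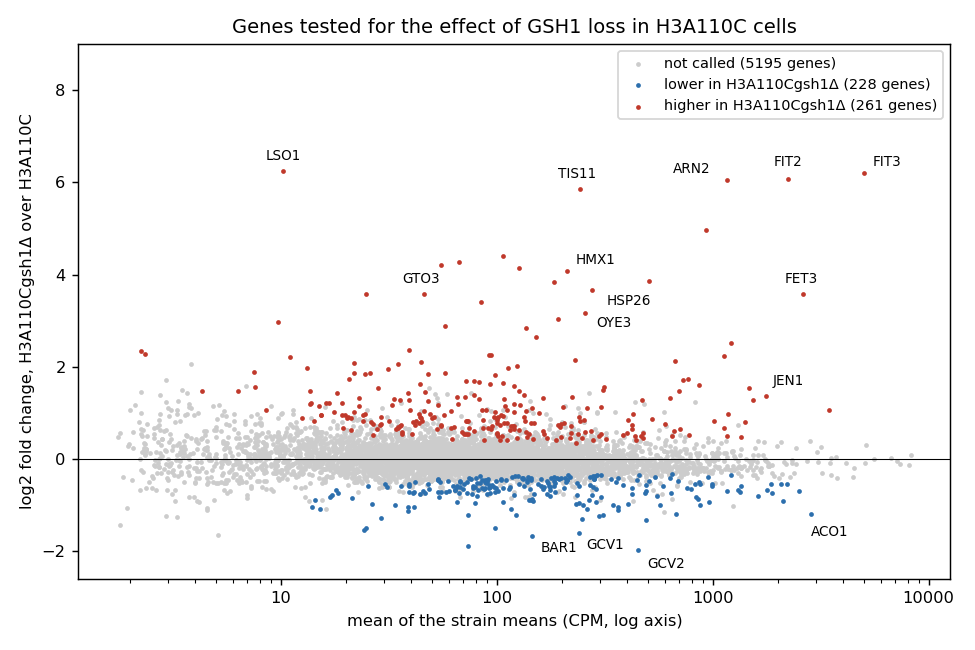
Log2 fold change of every gene tested (vertical axis, H3A110Cgsh1Δ over H3A110C) against its mean level (horizontal axis, log scale, CPM over the 6 libraries), with genes called higher and lower at an edgeR adjusted p below 0.05 in colour. GSH1 itself is left off, so 261 higher and 228 lower genes are shown; the rises reach beyond 6 on the log2 scale while the falls stay above −2.

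All 6 genes of reductive iron uptake were higher in H3A110Cgsh1Δ cells, with a median log2 fold change of 2.75. FET3 (YMR058W), the multicopper ferroxidase of the plasma membrane, had 4552, 5135 and 4791 CPM in H3A110Cgsh1Δ, against 278, 524 and 395 CPM in H3A110C (log2 fold change 3.58 ± 0.23, edgeR adjusted p = 4.96e-05; ± is the standard error of the fit throughout). Its permease partner FTR1 (YER145C) had 1766, 2384 and 2086 CPM in H3A110Cgsh1Δ, against 281, 449 and 357 CPM in H3A110C (log2 fold change 2.50 ± 0.19, edgeR adjusted p = 0.000155). In both genes the lowest H3A110Cgsh1Δ library exceeded the highest H3A110C library several-fold, and H3A110C replicate 2 was the highest of its strain. Of the ferric reductases that feed the pair, FRE2 (YKL220C) had 121, 115 and 144 CPM in H3A110Cgsh1Δ, against 6.18, 9.48 and 4.03 CPM in H3A110C (log2 fold change 4.27 ± 0.25, edgeR adjusted p = 3.17e-05). FRE1 (YLR214W), also a copper reductase, had 171, 340.2 and 213 CPM in H3A110Cgsh1Δ, against 26.4, 38.96 and 34.96 CPM in H3A110C (log2 fold change 2.84 ± 0.27, edgeR adjusted p = 0.000547). The groups did not overlap for either reductase, and FRE1 was the more variable within H3A110Cgsh1Δ, with replicate 2 highest. Copper reaches Fet3 through the chaperone Atx1 and the Golgi copper pump Ccc2. CCC2 (YDR270W) had 228, 287 and 272 CPM in H3A110Cgsh1Δ, against 41.3, 42.3 and 40.6 CPM in H3A110C (log2 fold change 2.65 ± 0.12, edgeR adjusted p = 6.58e-06). ATX1 (YNL259C) had 27.9, 27.6 and 27.3 CPM in H3A110Cgsh1Δ, against 16.6, 15.4 and 12.3 CPM in H3A110C (log2 fold change 0.89 ± 0.16, edgeR adjusted p = 0.0124). Both lay apart from H3A110C in every library, CCC2 by a wider margin than ATX1. FET3, FTR1, FRE1, FRE2 and CCC2 kept their calls in all 6 fits without 1 library. ATX1 lost its call without H3A110Cgsh1Δ replicate 3 (log2 fold change 0.79 to 0.99 over the 6 fits, edgeR adjusted p up to 0.0569).

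Siderophores are iron chelators made by other microbes, which yeast takes up through the Arn transporters and holds in the cell wall with the Fit mannoproteins. Of the 9 genes listed, 8 were higher, and the median over all 9 was 4.39. The mannoprotein gene FIT3 (YOR383C) had 10181, 8418 and 11055 CPM in H3A110Cgsh1Δ, against 85.5, 192 and 125 CPM in H3A110C (log2 fold change 6.19 ± 0.33, edgeR adjusted p = 1.92e-05). FIT2 (YOR382W) had 4376, 4317 and 4562 CPM in H3A110Cgsh1Δ, against 37.8, 104 and 52.9 CPM in H3A110C (log2 fold change 6.07 ± 0.38, edgeR adjusted p = 4.08e-05). The 2 genes varied little across H3A110Cgsh1Δ libraries and differed by more than 2-fold among H3A110C libraries, where replicate 2 was again highest. FIT1 (YDR534C) had 201, 151 and 265 CPM in H3A110Cgsh1Δ, against 9.98, 11.8 and 7.40 CPM in H3A110C (log2 fold change 4.39 ± 0.26, edgeR adjusted p = 3.64e-05), and 88.1% of its 50-base windows occur once in the genome. Among the transporters, ARN2 (YHL047C) had 2309.9, 2018 and 2585 CPM in H3A110Cgsh1Δ, against 32.1, 39.2 and 32.5 CPM in H3A110C (log2 fold change 6.05 ± 0.16, edgeR adjusted p = 8.73e-07). ARN1 (YHL040C) had 1583, 1941 and 1897 CPM in H3A110Cgsh1Δ, against 44.2, 75.9 and 52.4 CPM in H3A110C (log2 fold change 4.96 ± 0.22, edgeR adjusted p = 6.58e-06). Every H3A110Cgsh1Δ library stood above every H3A110C library for each of these genes. The ferrioxamine transporter gene SIT1 and the enterobactin transporter gene ENB1 rose by 3.85 ± 0.22 and 3.83 ± 0.15 (edgeR adjusted p = 2.68e-05 and 5.11e-06). The siderophore reductase gene FRE3 had 224, 252 and 248 CPM in H3A110Cgsh1Δ, against 14.7, 11.8 and 14.3 CPM in H3A110C (log2 fold change 4.13 ± 0.12, edgeR adjusted p = 9.9e-07). Its relative FRE4 was the exception: it had 16, 11.6 and 14.7 CPM in H3A110Cgsh1Δ, against 22.6, 14.9 and 17.7 CPM in H3A110C, and the 2 strains overlapped (log2 fold change −0.40 ± 0.21, edgeR adjusted p = 0.285). FIT3, FIT2, FIT1, ARN2, ARN1, SIT1, ENB1 and FRE3 kept their calls whichever library was left out.

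Summed over the 15 genes of the 2 uptake lists, iron uptake took 2.71%, 2.61% and 2.98% of the counts in H3A110Cgsh1Δ libraries, against 0.0943%, 0.173% and 0.123% in H3A110C libraries. The means were 2.77% ± 0.19 and 0.130% ± 0.040 (SD, n = 3 each), and the strains were fully separated, which gives p = 0.1 in a two-sided exact permutation test, the smallest that 3 against 3 libraries allow over 20 relabelings.

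Aft1 and Aft2 bind a core motif, and the stretches that hold it are shown because most of the iron genes that rose hold it. The 500 bases before the start codon were searched on both strands for the letters TGCACCC in the R64 assembly. They occur in 139 of 5986 promoters (2.32%), in 38 of 256 promoters of genes called higher (14.8%), in 3 of 226 of those called lower (1.33%) and in 92 of 5046 of those not called (1.82%). Of the 34 genes in the 4 iron lists, 20 hold the motif, of which 19 were higher with a median log2 fold change of 3.97 over the 20. The other 14 hold none and 7 of them were higher, with a median of 0.42. Because the 4 lists were made of iron genes, with earlier results of these data known, this split does not speak to the response. The lines below give, 5′ to 3′ on the strand of each gene, the stretch around the motifs, which are in capitals (GGGTGCA is the same motif read on the opposite strand).
FET3: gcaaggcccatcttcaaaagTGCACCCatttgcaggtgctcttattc
FTR1: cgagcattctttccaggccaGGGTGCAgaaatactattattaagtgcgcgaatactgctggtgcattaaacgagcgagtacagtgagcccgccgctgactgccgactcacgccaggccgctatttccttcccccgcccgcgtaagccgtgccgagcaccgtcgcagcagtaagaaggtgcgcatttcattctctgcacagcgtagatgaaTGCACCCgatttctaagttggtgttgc
CCC2: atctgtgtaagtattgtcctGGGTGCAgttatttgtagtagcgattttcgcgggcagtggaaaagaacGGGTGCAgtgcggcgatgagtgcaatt
FIT2: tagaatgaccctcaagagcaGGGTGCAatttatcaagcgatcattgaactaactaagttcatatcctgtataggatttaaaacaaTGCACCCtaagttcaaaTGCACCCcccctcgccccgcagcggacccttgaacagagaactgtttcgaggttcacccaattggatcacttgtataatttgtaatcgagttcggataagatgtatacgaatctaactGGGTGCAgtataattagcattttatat
FIT3: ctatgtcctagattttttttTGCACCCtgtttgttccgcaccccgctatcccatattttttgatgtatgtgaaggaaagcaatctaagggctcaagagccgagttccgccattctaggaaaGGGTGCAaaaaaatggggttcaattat
ARN2: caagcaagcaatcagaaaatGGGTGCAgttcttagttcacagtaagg
HMX1: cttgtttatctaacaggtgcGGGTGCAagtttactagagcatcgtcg
TIS11: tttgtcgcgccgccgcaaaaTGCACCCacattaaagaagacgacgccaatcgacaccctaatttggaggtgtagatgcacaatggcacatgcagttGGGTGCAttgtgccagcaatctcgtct
FRE4: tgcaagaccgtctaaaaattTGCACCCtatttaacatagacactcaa
In R64 these stretches are chrXIII:388551-388597 (plus strand, upstream of FET3), chrV:461889-462125 (minus strand, upstream of FTR1), chrIV:1005365-1005459 (plus strand, upstream of CCC2), chrXV:1059180-1059426 (plus strand, upstream of FIT2), chrXV:1061213-1061360 (minus strand, upstream of FIT3), chrVIII:10634-10680 (minus strand, upstream of ARN2), chrXII:554102-554148 (minus strand, upstream of HMX1), chrXII:416805-416927 (minus strand, upstream of TIS11) and chrXIV:739494-739540 (plus strand, upstream of FRE4).
FIT2 holds 4 copies, FTR1, CCC2, FIT3 and TIS11 hold 2 each, and the others hold 1 copy. FRE4 has the letters 437 bases before its start codon and was not called, while FRE1, MRS4, FTH1, COT1, AFT1, YAP5 and FRA1 have none in this window and were called higher.

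**Figure D2:**
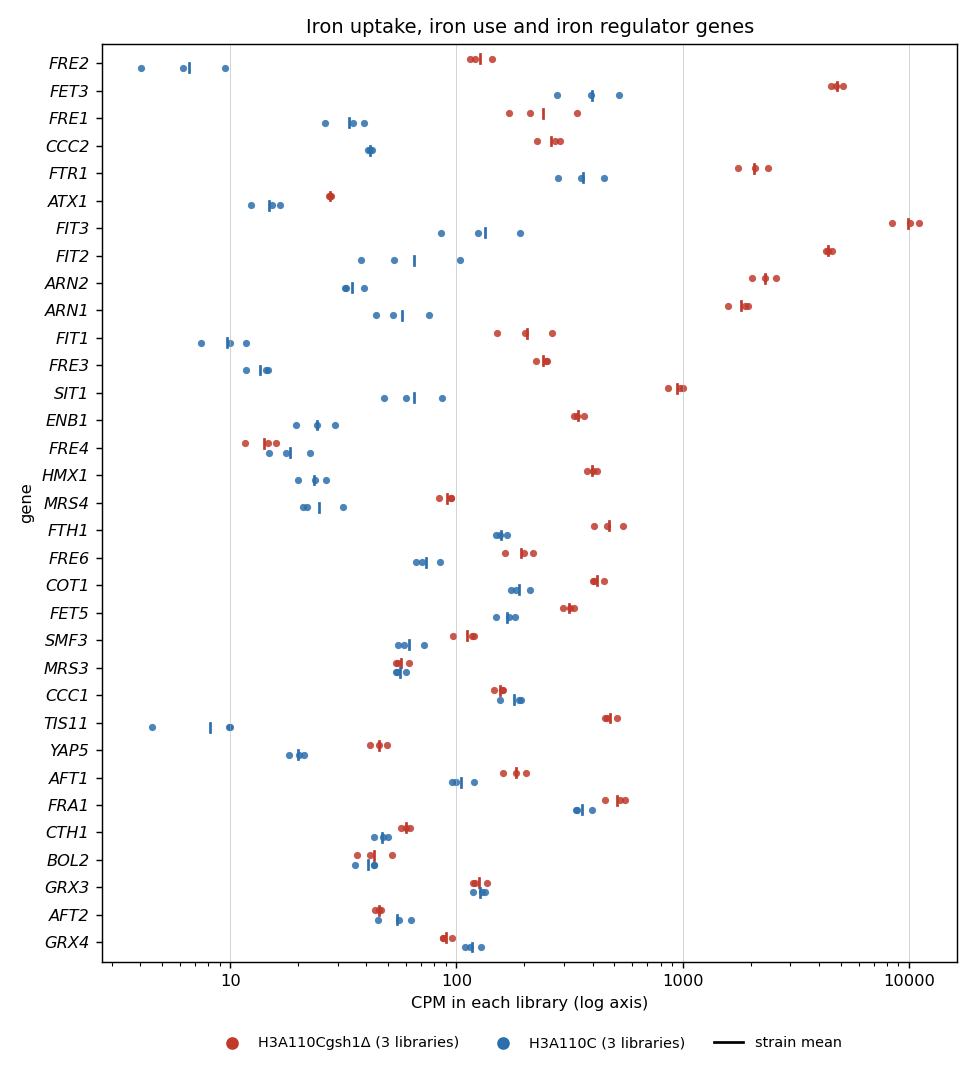
Level of each iron gene in the 6 libraries (horizontal axis, CPM, log scale), with H3A110Cgsh1Δ and H3A110C libraries as separate points, 1 gene per row and genes grouped by role. LSO1 is not plotted because 1 H3A110C library had no count. The points of the 2 strains lie farthest apart for the Fit, Arn and TIS11 rows. They overlap for FRE4, CCC1, MRS3 and AFT2, among other rows.

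Inside the cell, 7 of the 9 genes that move or release iron were higher (median 1.13) and none was lower. HMX1 (YLR205C), the heme oxygenase that recovers iron from heme, had 379, 402 and 417 CPM in H3A110Cgsh1Δ, against 19.95, 23.8 and 26.4 CPM in H3A110C (log2 fold change 4.08 ± 0.13, edgeR adjusted p = 1.31e-06). MRS4, a mitochondrial iron carrier, had 94.7, 84.1 and 94.4 CPM in H3A110Cgsh1Δ, against 21.9, 21.02 and 31.6 CPM in H3A110C (log2 fold change 1.86 ± 0.17, edgeR adjusted p = 0.000414). The related carrier MRS3 had 54.97, 61.5 and 53.9 CPM in H3A110Cgsh1Δ, against 59.6, 54.3 and 54.5 CPM in H3A110C (log2 fold change 0.01 ± 0.11, edgeR adjusted p = 0.977). MRS4 was separated between the strains by more than 2-fold in every pair of libraries and MRS3 overlapped. The vacuole holds the iron store, and 4 genes of its export machinery rose: FTH1, a permease, by 1.57 ± 0.13, its oxidase partner FET5 by 0.90 ± 0.10, the reductase FRE6 by 1.38 ± 0.15 and the exporter SMF3 by 0.84 ± 0.14 (edgeR adjusted p from 0.000202 to 0.00785). The vacuolar metal importer COT1 rose by 1.13 ± 0.11 (edgeR adjusted p = 0.000765). CCC1, which imports iron into the vacuole, had 161, 147 and 159.8 CPM in H3A110Cgsh1Δ, against 189.5, 156 and 193 CPM in H3A110C and was not called (log2 fold change −0.21 ± 0.11, edgeR adjusted p = 0.262). HMX1, MRS4, FTH1, FET5, FRE6, SMF3 and COT1 kept their calls in each fit that left out 1 library.

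Among 10 regulators and iron-sparing factors, 5 were higher and none lower (median 0.42), and 1 was lower without replicate 2 of H3A110Cgsh1Δ or with DESeq2. TIS11 (YLR136C) had 463, 455 and 513 CPM in H3A110Cgsh1Δ, against 4.51, 9.996 and 9.86 CPM in H3A110C (log2 fold change 5.86 ± 0.24, edgeR adjusted p = 5.44e-06). LSO1, a small gene of the iron response, had 108, 112 and 74 counts in H3A110Cgsh1Δ libraries, against 1, 0 and 2 counts in H3A110C libraries, a ratio of summed and depth-scaled counts of 84.4 with a 95% counting interval of 28.6 to 411.7. Neither gene overlapped between the strains, and H3A110C cells had almost no mRNA of LSO1. AFT1 itself had 161, 203 and 184 CPM in H3A110Cgsh1Δ, against 95.5, 119 and 99.5 CPM in H3A110C (log2 fold change 0.79 ± 0.13, edgeR adjusted p = 0.00868). YAP5, the activator of genes used when iron is high, had 49.5, 41.4 and 45.4 CPM in H3A110Cgsh1Δ, against 20.2, 18.2 and 21.3 CPM in H3A110C (log2 fold change 1.18 ± 0.14, edgeR adjusted p = 0.00183). AFT2 had 43.9, 46.7 and 45.7 CPM in H3A110Cgsh1Δ, against 55.8, 62.8 and 45.04 CPM in H3A110C (log2 fold change −0.28 ± 0.15, edgeR adjusted p = 0.283). AFT1 and YAP5 were separated between the strains, and AFT2 overlapped. The cytosolic monothiol glutaredoxin genes GRX3 and GRX4, whose proteins pass the Fe-S signal to Aft1, had log2 fold changes of −0.04 ± 0.11 and −0.39 ± 0.10 (edgeR adjusted p = 0.868 and 0.0503), and FRA1, which acts with them, rose by 0.51 ± 0.12 (edgeR adjusted p = 0.0334). TIS11, LSO1 and YAP5 kept their calls in all 6 fits without 1 library. AFT1 lost its call without H3A110C replicate 1 (log2 fold change 0.72 to 0.91 over the 6 fits, edgeR adjusted p up to 0.0554). FRA1 lost its call without any 1 library other than H3A110Cgsh1Δ replicate 2 (log2 fold change 0.44 to 0.60 over the 6 fits, edgeR adjusted p up to 0.158).

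The genes that build Fe-S clusters in mitochondria moved in both directions, 3 of 21 higher and 3 lower (median −0.14). ISU2, 1 of the 2 scaffold genes, had 50.8, 51.4 and 47.5 CPM in H3A110Cgsh1Δ, against 11.2, 15.1 and 12.1 CPM in H3A110C (log2 fold change 1.95 ± 0.16, edgeR adjusted p = 0.00019). Its near twin ISU1 had 225, 214 and 189 CPM in H3A110Cgsh1Δ, against 239, 237 and 179.7 CPM in H3A110C (log2 fold change −0.07 ± 0.14, edgeR adjusted p = 0.768). ISU2 was several-fold apart between the strains in every library and ISU1 overlapped. The chaperone gene SSQ1 and the carrier gene MTM1 rose by 0.72 ± 0.16 and 0.49 ± 0.089 (edgeR adjusted p = 0.0314 and 0.0124). ISA1 and IBA57, which act together in the late step that makes clusters for aconitase and radical SAM enzymes, fell by 0.77 ± 0.093 and 0.68 ± 0.13, and the frataxin gene YFH1 fell by 0.53 ± 0.12 (edgeR adjusted p = 0.00197, 0.014 and 0.0303). ISA1 had 107, 108 and 116 CPM in H3A110Cgsh1Δ, against 198, 183 and 179 CPM in H3A110C, with the 2 strains well apart. Without replicate 2 of H3A110Cgsh1Δ the count of lower genes in this list was 7. None of the 8 cytosolic Fe-S assembly genes was called by edgeR (median 0.03), whereas 1 was higher and 1 lower without replicate 2, and 1 was higher with DESeq2. ISU2 and ISA1 kept their calls whichever library was left out. IBA57 lost its call without H3A110Cgsh1Δ replicate 3 or H3A110C replicate 2 or 3 (log2 fold change −0.75 to −0.59 over the 6 fits, edgeR adjusted p up to 0.0726). MTM1 lost its call without H3A110Cgsh1Δ replicate 3 or H3A110C replicate 1, 2 or 3 (log2 fold change 0.49 to 0.52 over the 6 fits, edgeR adjusted p up to 0.0622). SSQ1 and YFH1 lost their calls without any 1 library other than H3A110Cgsh1Δ replicate 2 (log2 fold change 0.60 to 0.90 and −0.58 to −0.44 over the 6 fits, edgeR adjusted p up to 0.146).

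Of 14 genes for enzymes that hold an Fe-S cluster, 8 were lower and none higher, with a median of −0.54, and 9 were lower and 1 higher without replicate 2 of H3A110Cgsh1Δ. The aconitase gene ACO1 (YLR304C) had 1874, 1677 and 1647 CPM in H3A110Cgsh1Δ, against 4519, 3505 and 3858 CPM in H3A110C (log2 fold change −1.20 ± 0.12, edgeR adjusted p = 0.000626). SDH2 (YLL041C), the Fe-S subunit of succinate dehydrogenase, had 635, 573 and 547 CPM in H3A110Cgsh1Δ, against 1212, 1122 and 1156 CPM in H3A110C (log2 fold change −1.002 ± 0.10, edgeR adjusted p = 0.000547). Neither gene overlapped between the strains, and the highest H3A110Cgsh1Δ library was well below the lowest H3A110C library. GLT1, glutamate synthase, had 233, 279.7 and 205 CPM in H3A110Cgsh1Δ, against 529, 457 and 477 CPM in H3A110C (log2 fold change −1.04 ± 0.13, edgeR adjusted p = 0.00201). LYS4, homoaconitase, had 133, 215 and 155 CPM in H3A110Cgsh1Δ, against 345, 326 and 331 CPM in H3A110C (log2 fold change −1.01 ± 0.16, edgeR adjusted p = 0.00825). These genes did not overlap either, and in each the highest H3A110Cgsh1Δ library was replicate 2. Smaller falls were measured for RLI1, a ribosome recycling factor, the Rieske protein gene RIP1, the lipoate synthase gene LIP5 and the dihydroxyacid dehydratase gene ILV3, at 0.81 ± 0.14, 0.62 ± 0.094, 0.60 ± 0.095 and 0.49 ± 0.12 (edgeR adjusted p from 0.00629 to 0.0453). LEU1, isopropylmalate isomerase, had 283, 286 and 258 CPM in H3A110Cgsh1Δ, against 239, 286 and 293 CPM in H3A110C, with overlapping groups (log2 fold change 0.003 ± 0.11, edgeR adjusted p = 0.991). BIO2, biotin synthase, had 92.6, 63.7 and 66.8 CPM in H3A110Cgsh1Δ, against 93.8, 89.5 and 121 CPM in H3A110C, which also overlapped (log2 fold change −0.46 ± 0.18, edgeR adjusted p = 0.166). The sulfite reductase subunit gene MET5, whose enzyme also holds a cluster, had 153, 112 and 195 CPM in H3A110Cgsh1Δ, against 109.7, 115 and 85.2 CPM in H3A110C, with replicate 2 of H3A110Cgsh1Δ inside the H3A110C range (log2 fold change 0.56 ± 0.21, edgeR adjusted p = 0.146). ACO1, SDH2, GLT1 and LIP5 kept their calls in each fit that left out 1 library. RIP1 lost its call without H3A110C replicate 1 (log2 fold change −0.68 to −0.57 over the 6 fits, edgeR adjusted p up to 0.0527). LYS4 and RLI1 lost their calls without H3A110Cgsh1Δ replicate 3 or H3A110C replicate 1 (log2 fold change −1.22 to −0.74 over the 6 fits, edgeR adjusted p up to 0.0602). ILV3 lost its call without any 1 library other than H3A110Cgsh1Δ replicate 2 (log2 fold change −0.60 to −0.43 over the 6 fits, edgeR adjusted p up to 0.2). ILV3 also lost its call with DESeq2 size factors, with no filter on low counts, with a replicate block and in a fit of all 12 libraries.

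In the TCA cycle 10 of 16 genes were lower and none higher, with a median of −0.66. Besides ACO1 and SDH2, SDH1 had 1579, 1482 and 1382 CPM in H3A110Cgsh1Δ, against 2848, 2574 and 2856 CPM in H3A110C (log2 fold change −0.91 ± 0.10, edgeR adjusted p = 0.00102), and SDH3 and SDH4, the membrane anchors of succinate dehydrogenase, fell by 0.83 ± 0.090 and 0.64 ± 0.10 (edgeR adjusted p = 0.00118 and 0.00767). The citrate synthase gene CIT1 had 2201, 1826 and 1734 CPM in H3A110Cgsh1Δ, against 3384, 3064 and 2839 CPM in H3A110C (log2 fold change −0.70 ± 0.12, edgeR adjusted p = 0.0109). IDH1 and IDH2, the isocitrate dehydrogenase subunits, fell by 0.67 ± 0.10 and 0.71 ± 0.12 (edgeR adjusted p = 0.00514 and 0.00839). The 4 succinate dehydrogenase genes and CIT1 were lower in every H3A110Cgsh1Δ library than in any H3A110C library. SDH1, SDH3 and IDH1 kept their calls in all 6 fits without 1 library. SDH4 lost its call without H3A110C replicate 1 (log2 fold change −0.71 to −0.58 over the 6 fits, edgeR adjusted p up to 0.0573). CIT1 and IDH2 lost their calls without H3A110Cgsh1Δ replicate 3 or H3A110C replicate 1 (log2 fold change −0.81 to −0.60 over the 6 fits, edgeR adjusted p up to 0.0704).

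In the respiratory chain 13 of 23 nuclear genes were lower and 1 was higher (median −0.39). CYC1, the main cytochrome c gene, had 206, 322 and 167 CPM in H3A110Cgsh1Δ, against 571, 448 and 471 CPM in H3A110C (log2 fold change −1.11 ± 0.22, edgeR adjusted p = 0.0186). QCR2, a core subunit of the cytochrome bc1 complex, had 1174, 1240.3 and 1131 CPM in H3A110Cgsh1Δ, against 2159, 1978 and 2020.5 CPM in H3A110C (log2 fold change −0.81 ± 0.088, edgeR adjusted p = 0.00118). COR1, the other core subunit, had 1418, 1510.03 and 1343 CPM in H3A110Cgsh1Δ, against 2506, 2221 and 2314 CPM in H3A110C (log2 fold change −0.73 ± 0.093, edgeR adjusted p = 0.0024). CYC1 was the more variable, with replicate 2 highest within H3A110Cgsh1Δ, and none of these genes overlapped. QCR9 fell by 0.71 ± 0.11 and CYT1, cytochrome c1, by 0.63 ± 0.10 (edgeR adjusted p = 0.00643 and 0.00835). The gene that rose was NDE2, an external NADH dehydrogenase, at 35.8, 52.4 and 34.01 CPM in H3A110Cgsh1Δ, against 23.5, 23.1 and 21.96 CPM in H3A110C (log2 fold change 0.83 ± 0.19, edgeR adjusted p = 0.0311). Of the 13 nuclear ATP synthase genes 4 were lower (median −0.21), led by ATP20 and ATP14 at −0.64 ± 0.10 and −0.44 ± 0.086 (edgeR adjusted p = 0.00781 and 0.0171). CCP1, the mitochondrial cytochrome c peroxidase, had 235, 182 and 182 CPM in H3A110Cgsh1Δ, against 402, 365 and 366 CPM in H3A110C (log2 fold change −0.93 ± 0.13, edgeR adjusted p = 0.00342), and its groups did not overlap. QCR2, COR1, QCR9 and CCP1 kept their calls whichever library was left out. ATP20 lost its call without H3A110C replicate 1 (log2 fold change −0.69 to −0.58 over the 6 fits, edgeR adjusted p up to 0.0551). CYT1 lost its call without H3A110Cgsh1Δ replicate 3 or H3A110C replicate 1 or 3 (log2 fold change −0.72 to −0.58 over the 6 fits, edgeR adjusted p up to 0.0623). CYC1, NDE2 and ATP14 lost their calls without H3A110Cgsh1Δ replicate 3 or H3A110C replicate 1, 2 or 3 (log2 fold change 0.62 to 0.94 and −1.40 to −0.39 over the 6 fits, edgeR adjusted p up to 0.125).

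Of 66 mitochondrial ribosome genes, 33 were lower and none higher, with a median of −0.39, and 57 of the list had all H3A110Cgsh1Δ libraries below all H3A110C libraries. Without replicate 2 of H3A110Cgsh1Δ 38 were lower and 1 higher. The largest falls were those of RSM22, MRPS8, MRPS17 and MRPL49, at −0.77 ± 0.15, −0.73 ± 0.18, −0.73 ± 0.13 and −0.72 ± 0.11 (edgeR adjusted p from 0.00554 to 0.0412). MRPL49 had 43.3, 47.7 and 42.2 CPM in H3A110Cgsh1Δ, against 76.01, 70.2 and 71.9 CPM in H3A110C, apart in every library. In heme synthesis 3 of 9 genes were lower, namely HEM3, HEM1 and HEM2 at −0.59 ± 0.13, −0.57 ± 0.10 and −0.43 ± 0.093 (edgeR adjusted p = 0.0285, 0.01 and 0.0279). HEM1 encodes 5-aminolevulinate synthase, the first enzyme of the pathway. Transcripts of the mitochondrial genome, which lack the long poly(A) tails selected in these libraries, summed to 4.69 to 5.45 CPM in H3A110Cgsh1Δ and 4.10 to 4.75 CPM in H3A110C libraries. MRPL49 kept its call in each fit that left out 1 library. HEM1 lost its call without H3A110Cgsh1Δ replicate 3 or H3A110C replicate 1 (log2 fold change −0.63 to −0.50 over the 6 fits, edgeR adjusted p up to 0.0685). MRPS17 lost its call without H3A110C replicate 1, 2 or 3 (log2 fold change −0.84 to −0.62 over the 6 fits, edgeR adjusted p up to 0.0591). RSM22 lost its call without H3A110Cgsh1Δ replicate 3 or H3A110C replicate 1, 2 or 3 (log2 fold change −0.94 to −0.67 over the 6 fits, edgeR adjusted p up to 0.0819). MRPS8, HEM2 and HEM3 lost their calls without any 1 library other than H3A110Cgsh1Δ replicate 2 (log2 fold change −0.86 to −0.37 over the 6 fits, edgeR adjusted p up to 0.188).

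**Figure D3:**
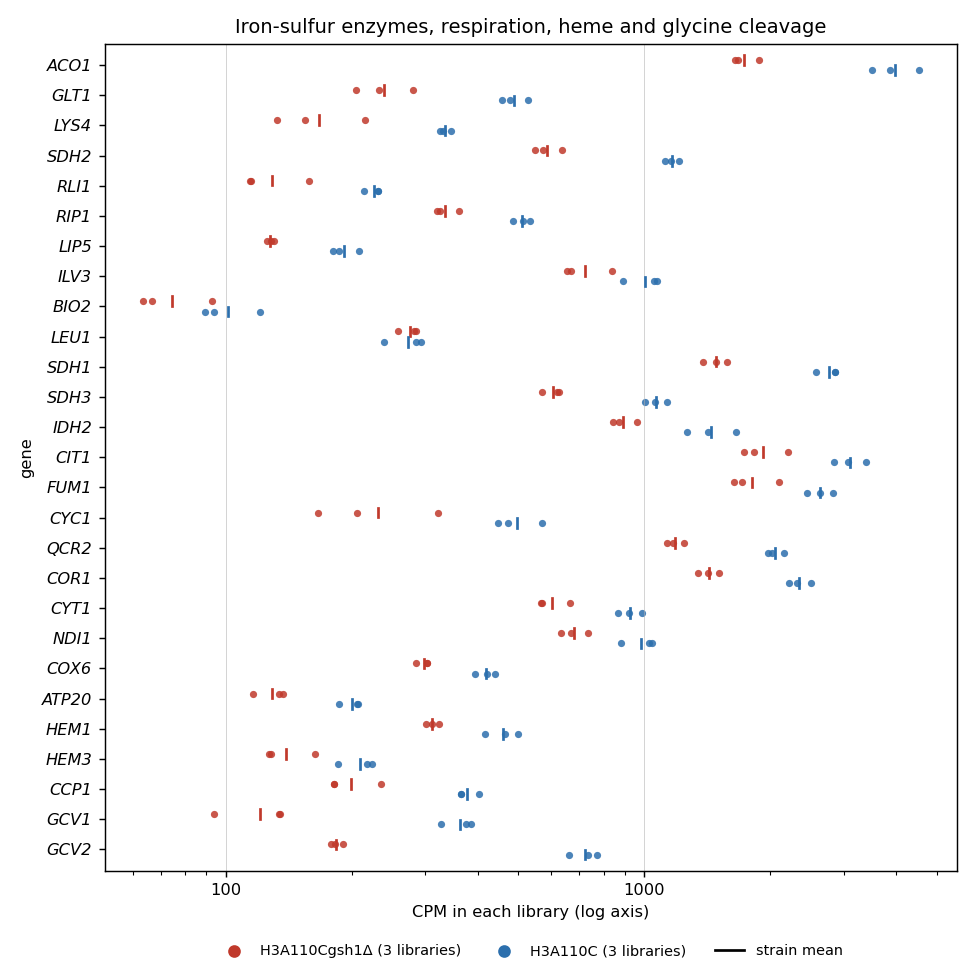
Level of genes for Fe-S enzymes, the TCA cycle, respiration, heme synthesis and glycine cleavage in the 6 libraries (horizontal axis, CPM, log scale), 1 gene per row, with H3A110Cgsh1Δ and H3A110C libraries as separate points and vertical ticks at the strain means. The H3A110Cgsh1Δ points lie to the left of the H3A110C points in every row but BIO2 and LEU1, where they overlap.

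The glycine cleavage system, which feeds single-carbon units to folate and uses lipoate, held the largest fall after that of GSH1. GCV2 (YMR189W) had 178, 191 and 183 CPM in H3A110Cgsh1Δ, against 735, 771 and 659 CPM in H3A110C (log2 fold change −1.98 ± 0.10, edgeR adjusted p = 1.52e-05). GCV1 (YDR019C) had 134, 93.8 and 135 CPM in H3A110Cgsh1Δ, against 376, 387 and 326 CPM in H3A110C (log2 fold change −1.60 ± 0.16, edgeR adjusted p = 0.000738). The 2 strains were more than 2-fold apart in every library for both genes. GCV3 and the cytosolic serine hydroxymethyltransferase gene SHM2, which were chosen after their values were seen, fell by 1.22 ± 0.10 and 1.21 ± 0.11 (edgeR adjusted p = 0.000162 and 0.000384). Among the other large falls, BIO3 in biotin synthesis had 11.3, 15.3 and 10.3 CPM in H3A110Cgsh1Δ, against 33.3, 41.8 and 33.4 CPM in H3A110C (log2 fold change −1.55 ± 0.20, edgeR adjusted p = 0.0024). NFG1, a regulator of filamentous growth, had 31.6, 33.5 and 29.6 CPM in H3A110Cgsh1Δ, against 129.9, 114 and 106 CPM in H3A110C (log2 fold change −1.89 ± 0.12, edgeR adjusted p = 4.55e-05). PDH1, which acts in propionate breakdown, had 329, 297 and 225 CPM in H3A110Cgsh1Δ, against 646, 715 and 743 CPM in H3A110C (log2 fold change −1.32 ± 0.15, edgeR adjusted p = 0.00134). None of these overlapped between the strains. The biotin precursor importer gene BIO5 moved the other way, with 74.9, 81.9 and 69.8 CPM in H3A110Cgsh1Δ, against 22.3, 20.2 and 20.4 CPM in H3A110C (log2 fold change 1.84 ± 0.12, edgeR adjusted p = 6.15e-05). GCV2, GCV1, GCV3, SHM2, BIO3, NFG1, PDH1 and BIO5 kept their calls in all 6 fits without 1 library.

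Genes that use glutathione rose in part. Of 19 listed, 5 were higher and none lower (median 0.45), and 10 were higher without replicate 2 of H3A110Cgsh1Δ. The omega-class glutathione transferase gene GTO3 had 85.1, 83.3 and 87.95 CPM in H3A110Cgsh1Δ, against 6.65, 8.46 and 6.05 CPM in H3A110C (log2 fold change 3.59 ± 0.16, edgeR adjusted p = 6.58e-06). Its relative ECM4 had 222, 157 and 222 CPM in H3A110Cgsh1Δ, against 44.2, 49.5 and 54.5 CPM in H3A110C (log2 fold change 2.01 ± 0.17, edgeR adjusted p = 0.000215). The transferase gene GTT2 had 69.3, 44.9 and 87.1 CPM in H3A110Cgsh1Δ, against 17.3, 22.8 and 23.98 CPM in H3A110C (log2 fold change 1.63 ± 0.26, edgeR adjusted p = 0.0073). All 3 were apart in every library, and GTT2 varied most within H3A110Cgsh1Δ, with replicate 2 lowest. GRX7 and SFA1, a glutaredoxin and the formaldehyde dehydrogenase, rose by 0.60 ± 0.12 and 0.47 ± 0.10 (edgeR adjusted p = 0.0156 and 0.0309). GSH2, the second enzyme of glutathione synthesis, had 176, 166 and 152 CPM in H3A110Cgsh1Δ, against 189.5, 186 and 187 CPM in H3A110C (log2 fold change −0.20 ± 0.093, edgeR adjusted p = 0.233). GLR1, glutathione reductase, had 543, 414 and 498 CPM in H3A110Cgsh1Δ, against 414, 361 and 421 CPM in H3A110C (log2 fold change 0.27 ± 0.12, edgeR adjusted p = 0.221). Neither was called. Of the transporters, OPT1, which imports glutathione, had 58.5, 33.5 and 69.8 CPM in H3A110Cgsh1Δ, against 21.4, 27.9 and 26.9 CPM in H3A110C (log2 fold change 1.06 ± 0.27, edgeR adjusted p = 0.047). YCF1, which pumps glutathione conjugates into the vacuole, had 598, 509 and 590.5 CPM in H3A110Cgsh1Δ, against 379, 390.4 and 379.8 CPM in H3A110C (log2 fold change 0.55 ± 0.10, edgeR adjusted p = 0.0127). Both were higher in every H3A110Cgsh1Δ library, OPT1 by little in replicate 2. GTO3 and ECM4 kept their calls whichever library was left out. GTT2 lost its call without H3A110C replicate 1 (log2 fold change 1.40 to 1.87 over the 6 fits, edgeR adjusted p up to 0.0521). YCF1 lost its call without H3A110Cgsh1Δ replicate 3 or H3A110C replicate 1, 2 or 3 (log2 fold change 0.51 to 0.64 over the 6 fits, edgeR adjusted p up to 0.0769). GRX7, SFA1 and OPT1 lost their calls without any 1 library other than H3A110Cgsh1Δ replicate 2 (log2 fold change 0.42 to 1.33 over the 6 fits, edgeR adjusted p up to 0.193). OPT1 also lost its call when libraries were scaled by total counts only.

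Among 13 thioredoxin and peroxiredoxin genes 4 were higher and none lower (median 0.29), and 8 were higher without replicate 2 of H3A110Cgsh1Δ. AHP1, a thiol peroxidase, had 471, 772 and 454 CPM in H3A110Cgsh1Δ, against 321, 259 and 278 CPM in H3A110C (log2 fold change 0.97 ± 0.20, edgeR adjusted p = 0.0216). The thioredoxin gene TRX2 had 265, 215 and 275 CPM in H3A110Cgsh1Δ, against 157, 143 and 144 CPM in H3A110C (log2 fold change 0.76 ± 0.12, edgeR adjusted p = 0.00705). The strains did not overlap for either, and AHP1 was highest in replicate 2. The peroxiredoxin genes TSA2 and PRX1 rose by 0.66 ± 0.15 and 0.46 ± 0.11 (edgeR adjusted p = 0.0335 and 0.0401). TRX2 kept its call in each fit that left out 1 library. AHP1 lost its call without H3A110C replicate 1, 2 or 3 (log2 fold change 0.70 to 1.10 over the 6 fits, edgeR adjusted p up to 0.103). TSA2 and PRX1 lost their calls without any 1 library other than H3A110Cgsh1Δ replicate 2 (log2 fold change 0.36 to 0.77 over the 6 fits, edgeR adjusted p up to 0.157).

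Of 18 genes for oxidant defence or targets of Yap1, the activator of the oxidative stress response, 6 were higher and CCP1 was lower. OYE3, a flavin NADPH oxidoreductase, had 540.1, 357 and 492 CPM in H3A110Cgsh1Δ, against 34.4, 62.3 and 56.7 CPM in H3A110C (log2 fold change 3.17 ± 0.25, edgeR adjusted p = 0.000177). Its relative OYE2 had 1106, 827 and 1159 CPM in H3A110Cgsh1Δ, against 306, 413 and 383 CPM in H3A110C (log2 fold change 1.48 ± 0.17, edgeR adjusted p = 0.00155). Both stood far above H3A110C in every library, OYE3 by the wider margin. ZWF1, which starts the pentose phosphate pathway, had 780.1, 486 and 751 CPM in H3A110Cgsh1Δ, against 264, 258 and 298 CPM in H3A110C (log2 fold change 1.29 ± 0.18, edgeR adjusted p = 0.00428). The superoxide dismutase gene SOD1 had 1627, 1662 and 1402 CPM in H3A110Cgsh1Δ, against 868, 749.99 and 770.5 CPM in H3A110C (log2 fold change 0.96 ± 0.10, edgeR adjusted p = 0.00118). The strains were apart in every library for these genes too, and OYE3, OYE2 and ZWF1 were lowest in replicate 2 of H3A110Cgsh1Δ. GRE2 and AAD6 rose by 1.69 ± 0.16 and 1.02 ± 0.19 (edgeR adjusted p = 0.000623 and 0.0152), while the cytosolic catalase gene CTT1 had 138, 26.6 and 63.03 CPM in H3A110Cgsh1Δ, against 24.5, 22.6 and 43.3 CPM in H3A110C and overlapped (log2 fold change 1.33 ± 0.54, edgeR adjusted p = 0.178). The Yap1 motif TTACTAA lies, on either strand, in the 500 bases before the start codon of 8 of 17 genes of the list with a promoter (47.1%) and in 11.8% of all promoters. The list names targets of Yap1, so this share does not speak to the response. The motif lies before 50 of 256 genes called higher (19.5%), 27 of 226 called lower (11.9%) and 593 of 5046 not called (11.8%). The 2 copies before OYE3 are shown as the example with the largest rise of the list, in capitals, TTAGTAA being the motif on the other strand.
OYE3: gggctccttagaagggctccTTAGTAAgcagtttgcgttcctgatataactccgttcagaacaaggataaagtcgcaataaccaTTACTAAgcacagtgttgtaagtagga
In R64 this is chrXVI:227493-227603 on the minus strand, upstream of OYE3. OYE3, OYE2, ZWF1, SOD1 and GRE2 kept their calls in all 6 fits without 1 library. AAD6 lost its call without H3A110Cgsh1Δ replicate 3 or H3A110C replicate 2 or 3 (log2 fold change 0.87 to 1.16 over the 6 fits, edgeR adjusted p up to 0.0719).

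In sulfur metabolism most calls were among the uptake and amino acid genes. Of 17 genes for synthesis and uptake of sulfur amino acids 6 were higher and none lower (median 0.36). Without replicate 2 of H3A110Cgsh1Δ 9 were higher and 3 lower. YCT1, a cysteine transporter, had 219, 115 and 227 CPM in H3A110Cgsh1Δ, against 58.9, 59.98 and 80.9 CPM in H3A110C (log2 fold change 1.48 ± 0.26, edgeR adjusted p = 0.0113). MUP3, a methionine permease, had 38.6, 22.5 and 37.8 CPM in H3A110Cgsh1Δ, against 11.4, 13.3 and 14.1 CPM in H3A110C (log2 fold change 1.33 ± 0.24, edgeR adjusted p = 0.013). The S-methylmethionine permease gene MMP1 had 408, 256 and 419.5 CPM in H3A110Cgsh1Δ, against 160.3, 167 and 170.1 CPM in H3A110C (log2 fold change 1.11 ± 0.18, edgeR adjusted p = 0.00863). All 3 were higher in every H3A110Cgsh1Δ library and lowest there in replicate 2. MET2, MHT1 and CYS3, which act in homocysteine, methionine and cysteine synthesis, rose by 1.03 ± 0.26, 0.92 ± 0.17 and 0.61 ± 0.12 (edgeR adjusted p = 0.0438, 0.0131 and 0.0152). Of 10 sulfate assimilation genes only the sulfate permease SUL2 was called, with 68.9, 52.4 and 79.2 CPM in H3A110Cgsh1Δ, against 33.5, 34.1 and 38.3 CPM in H3A110C (log2 fold change 0.90 ± 0.17, edgeR adjusted p = 0.015), but 5 were called with DESeq2 and 7 without replicate 2 of H3A110Cgsh1Δ. MET3, ATP sulfurylase, had 103, 33.9 and 119.6 CPM in H3A110Cgsh1Δ, against 33.97, 27.9 and 33.8 CPM in H3A110C, overlapping only through replicate 2 (log2 fold change 1.40 ± 0.41, edgeR adjusted p = 0.0736). MET32, a zinc finger factor of the sulfur genes, rose by 1.14 ± 0.21 (edgeR adjusted p = 0.0132). The letters CACGTG, bound by Cbf1, lie before 10 of 11 sulfate assimilation genes (90.9%) and before 6.23% of all genes. They lie before 18 of 256 genes called higher (7.03%), 14 of 226 called lower (6.19%) and 310 of 5046 not called (6.14%). The share in the list thus does not speak to the response. MMP1 lost its call without H3A110C replicate 1 (log2 fold change 0.99 to 1.32 over the 6 fits, edgeR adjusted p up to 0.0602). YCT1, MUP3 and SUL2 lost their calls without H3A110Cgsh1Δ replicate 3 or H3A110C replicate 1 or 2 (log2 fold change 0.77 to 1.74 over the 6 fits, edgeR adjusted p up to 0.0895). MHT1 lost its call without H3A110Cgsh1Δ replicate 3 or H3A110C replicate 1 or 3 (log2 fold change 0.79 to 1.05 over the 6 fits, edgeR adjusted p up to 0.0714). MET2, CYS3 and MET32 lost their calls without H3A110Cgsh1Δ replicate 3 or H3A110C replicate 1, 2 or 3 (log2 fold change 0.51 to 1.24 over the 6 fits, edgeR adjusted p up to 0.146).

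Several heat shock and stress genes rose. The small heat shock protein gene HSP26 had 441, 691 and 407 CPM in H3A110Cgsh1Δ, against 32.5, 54.3 and 34.3 CPM in H3A110C (log2 fold change 3.65 ± 0.27, edgeR adjusted p = 0.000138). HSP30 had 1627, 583 and 1062 CPM in H3A110Cgsh1Δ, against 318, 176 and 259.5 CPM in H3A110C (log2 fold change 2.12 ± 0.36, edgeR adjusted p = 0.00992). GRE1, a hydrophilin of osmotic stress, had 59.7, 191 and 64.5 CPM in H3A110Cgsh1Δ, against 6.65, 5.13 and 5.15 CPM in H3A110C (log2 fold change 4.20 ± 0.52, edgeR adjusted p = 0.00226). The strains were separated in all 3, HSP30 being lowest and HSP26 and GRE1 highest in replicate 2 of H3A110Cgsh1Δ. SSA4 and SSE2 rose by 1.02 ± 0.10 and 0.71 ± 0.17, whereas the mitochondrial chaperonin gene HSP60 fell by 0.59 ± 0.11 (edgeR adjusted p = 0.000765, 0.0376 and 0.0151). Of the 23 heat shock genes 4 were higher and 1 lower, and 10 and 5 without replicate 2. HSP26, GRE1 and SSA4 kept their calls whichever library was left out. HSP30 lost its call without H3A110C replicate 2 (log2 fold change 1.70 to 2.43 over the 6 fits, edgeR adjusted p up to 0.0531). SSE2 and HSP60 lost their calls without any 1 library other than H3A110Cgsh1Δ replicate 2 (log2 fold change 0.56 to 0.89 and −0.67 to −0.51 over the 6 fits, edgeR adjusted p up to 0.157).

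The lactate and pyruvate permease gene JEN1 had 2837, 2185 and 2615 CPM in H3A110Cgsh1Δ, against 989.8, 813 and 1151 CPM in H3A110C (log2 fold change 1.36 ± 0.15, edgeR adjusted p = 0.00133). The hexose transporter gene HXT5 had 117, 237 and 113 CPM in H3A110Cgsh1Δ, against 22.6, 41.3 and 32.9 CPM in H3A110C (log2 fold change 2.26 ± 0.33, edgeR adjusted p = 0.00538). Both were above H3A110C in all 3 libraries, HXT5 most so in replicate 2. PDC6, a pyruvate decarboxylase, had 66.4, 59.6 and 70.7 CPM in H3A110Cgsh1Δ, against 11.4, 15.1 and 11.4 CPM in H3A110C (log2 fold change 2.36 ± 0.16, edgeR adjusted p = 8.31e-05). The main pyruvate decarboxylase gene PDC1 had 4221, 5528 and 4292 CPM in H3A110Cgsh1Δ, against 2632, 1743 and 2261 CPM in H3A110C (log2 fold change 1.07 ± 0.17, edgeR adjusted p = 0.00675). Neither overlapped between the strains, and PDC1 was highest in replicate 2 of H3A110Cgsh1Δ. The glycolytic genes TDH1 and ENO1 rose by 1.61 ± 0.19 and 1.28 ± 0.19 (edgeR adjusted p = 0.00163 and 0.00566), but 84.3% and 76.4% of their 50-base windows are unique in the genome, so their counts may be shared with near-identical copies. In glycerol use STL1, the glycerol symporter, and GUT2 rose by 0.85 ± 0.11 and 0.50 ± 0.11 (edgeR adjusted p = 0.00284 and 0.0309), the 2 calls among 9 genes, of which 6 were higher and 1 lower without replicate 2 of H3A110Cgsh1Δ. Of 17 genes for gluconeogenesis, the glyoxylate cycle and acetate use, JEN1 was higher and 4 were lower: ACS1 and ACS2, the acetyl-CoA synthetases, MLS1, malate synthase, and ADY2, an acetate transporter, were lower by 0.98 ± 0.17, 0.72 ± 0.10, 0.68 ± 0.11 and 0.82 ± 0.20 (edgeR adjusted p from 0.00391 to 0.0403). ACS1 had 341, 253 and 229 CPM in H3A110Cgsh1Δ, against 533, 454 and 625 CPM in H3A110C, without overlap. JEN1, HXT5, PDC6, PDC1, TDH1, ENO1, STL1 and ACS2 kept their calls in each fit that left out 1 library. ACS1 and MLS1 lost their calls without H3A110Cgsh1Δ replicate 3 or H3A110C replicate 1 or 3 (log2 fold change −1.17 to −0.62 over the 6 fits, edgeR adjusted p up to 0.0663). GUT2 lost its call without H3A110Cgsh1Δ replicate 1 or H3A110C replicate 1, 2 or 3 (log2 fold change 0.41 to 0.58 over the 6 fits, edgeR adjusted p up to 0.126). ADY2 lost its call without H3A110Cgsh1Δ replicate 3 or H3A110C replicate 1, 2 or 3 (log2 fold change −1.03 to −0.63 over the 6 fits, edgeR adjusted p up to 0.146). ADY2 also lost its call with counts thinned to the smallest library (edgeR adjusted p = 0.0648).

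The counts of several lists turned on replicate 2 of H3A110Cgsh1Δ, without which 906 of all 5714 genes tested were higher and 840 lower. None of 16 trehalose and glycogen genes was called (median 0.76), and 14 were higher without it. TPS1, trehalose phosphate synthase, had 1099, 399 and 885 CPM in H3A110Cgsh1Δ, against 407, 315 and 454 CPM in H3A110C, so that replicate 2 lay within the H3A110C range and the other libraries above it (log2 fold change 1.01 ± 0.33, edgeR adjusted p = 0.1). Of 34 proteasome genes 3 were higher, PRE2, PUP3 and RPT1, by 0.51 ± 0.12, 0.46 ± 0.11 and 0.42 ± 0.094 (edgeR adjusted p = 0.0389, 0.0372 and 0.0316), and 25 without replicate 2. Of 133 cytosolic ribosomal protein genes 1 was lower, RPL18B, by 0.70 ± 0.15 (edgeR adjusted p = 0.028), and 94 without replicate 2. None of 53 ribosome biogenesis genes was called (median −0.23), and 29 were lower without it. Among 36 autophagy genes ATG8 alone was higher, by 0.98 ± 0.19 (edgeR adjusted p = 0.017), and 17 were without replicate 2. Ribosomal and proteasome shares moved with this library (proteasome 0.858% of its counts, against 1.16% and 1.09% in replicates 1 and 3 and 0.833% to 0.926% in H3A110C), and their part in these results was not tested. ATG8 lost its call without H3A110Cgsh1Δ replicate 3 or H3A110C replicate 1 or 2 (log2 fold change 0.87 to 1.16 over the 6 fits, edgeR adjusted p up to 0.0822). PRE2, PUP3, RPT1 and RPL18B lost their calls without any 1 library other than H3A110Cgsh1Δ replicate 2 (log2 fold change 0.37 to 0.63 and −0.87 to −0.58 over the 6 fits, edgeR adjusted p up to 0.161). RPT1 also lost its call with a replicate block (edgeR adjusted p = 0.0501).

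In the lysine, arginine, histidine, tryptophan and branched-chain lists every gene called was lower. Of 9 lysine genes 4 were lower (median −0.42), 6 with DESeq2 and 7 without replicate 2 of H3A110Cgsh1Δ. Besides LYS4, LYS1, saccharopine dehydrogenase, had 83.4, 128 and 92.1 CPM in H3A110Cgsh1Δ, against 182, 189 and 191 CPM in H3A110C (log2 fold change −0.90 ± 0.15, edgeR adjusted p = 0.00982), and LYS9 and LYS12 fell by 0.66 ± 0.11 and 0.41 ± 0.10 (edgeR adjusted p = 0.00977 and 0.0409). LYS1 was apart in every library, replicate 2 of H3A110Cgsh1Δ being nearest to H3A110C. Of 20 arginine, histidine and tryptophan genes 2 were lower, HIS5 and ARG2, by 0.77 ± 0.14 and 0.65 ± 0.16 (edgeR adjusted p = 0.0117 and 0.0448), with a median of −0.55. With DESeq2 7 were lower, and without replicate 2 of H3A110Cgsh1Δ 18 were. ARG1, argininosuccinate synthetase, had 217, 597 and 297 CPM in H3A110Cgsh1Δ, against 847, 772 and 833 CPM in H3A110C (log2 fold change −1.15 ± 0.31, edgeR adjusted p = 0.0609), with replicate 2 between the other H3A110Cgsh1Δ libraries and those of H3A110C. In branched-chain synthesis 1 of 12 genes, ILV3, was lower, and 6 without replicate 2. In the glutamate list 1 of 6 genes was higher and 1, GLT1, lower. GDH3, a glutamate dehydrogenase, had 167, 218 and 166 CPM in H3A110Cgsh1Δ, against 84.3, 88.4 and 93.2 CPM in H3A110C (log2 fold change 1.04 ± 0.13, edgeR adjusted p = 0.00201), with no overlap. GDH3 kept its call in all 6 fits without 1 library. LYS1 lost its call without H3A110Cgsh1Δ replicate 3 or H3A110C replicate 1 (log2 fold change −1.09 to −0.78 over the 6 fits, edgeR adjusted p up to 0.0575). LYS9 and HIS5 lost their calls without H3A110Cgsh1Δ replicate 3 or H3A110C replicate 1 or 3 (log2 fold change −0.90 to −0.59 over the 6 fits, edgeR adjusted p up to 0.0835). LYS12 and ARG2 lost their calls without any 1 library other than H3A110Cgsh1Δ replicate 2 (log2 fold change −0.82 to −0.36 over the 6 fits, edgeR adjusted p up to 0.189).

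Genes of the mating pathway and of a cells were lower in 9 of 10 cases and higher in none (median −0.95). BAR1, the protease that degrades α-factor, had 76.8, 68.8 and 63.9 CPM in H3A110Cgsh1Δ, against 244, 188 and 234 CPM in H3A110C (log2 fold change −1.68 ± 0.13, edgeR adjusted p = 0.00014). The cell fusion gene FUS1 had 17.3, 17.4 and 16.7 CPM in H3A110Cgsh1Δ, against 42.99, 44.1 and 36.98 CPM in H3A110C (log2 fold change −1.28 ± 0.14, edgeR adjusted p = 0.00118). The α-factor receptor gene STE2 had 155, 158 and 158 CPM in H3A110Cgsh1Δ, against 358, 277 and 288 CPM in H3A110C (log2 fold change −0.98 ± 0.11, edgeR adjusted p = 0.00158). Each was lower in all 3 H3A110Cgsh1Δ libraries, with little spread within that strain. The agglutinin genes AGA1 and AGA2, the a-factor exporter STE6 and the a-factor genes MFA1 and MFA2 fell by 0.94 ± 0.12, 1.05 ± 0.12, 0.96 ± 0.10, 0.75 ± 0.17 and 0.60 ± 0.10 (edgeR adjusted p from 0.000714 to 0.0309). PRM5, a pheromone-regulated gene outside the list, had 10.5, 14.98 and 13.5 CPM in H3A110Cgsh1Δ, against 30.6, 40.2 and 39.2 CPM in H3A110C (log2 fold change −1.51 ± 0.19, edgeR adjusted p = 0.0024). BAR1, FUS1, STE2, AGA1, AGA2, STE6 and PRM5 kept their calls whichever library was left out. MFA2 lost its call without H3A110Cgsh1Δ replicate 3 or H3A110C replicate 1 (log2 fold change −0.64 to −0.55 over the 6 fits, edgeR adjusted p up to 0.0663). MFA1 lost its call without H3A110Cgsh1Δ replicate 3 or H3A110C replicate 1 or 2 (log2 fold change −0.88 to −0.62 over the 6 fits, edgeR adjusted p up to 0.146). MFA2 also lost its call in a fit of all 12 libraries (edgeR adjusted p = 0.0596).

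ZRT1, the high-affinity zinc transporter, had 56.1, 49.2 and 51.01 CPM in H3A110Cgsh1Δ, against 107, 114 and 214 CPM in H3A110C (log2 fold change −1.49 ± 0.26, edgeR adjusted p = 0.0102). It was the only call among 7 zinc genes, of which 1 was higher and 2 lower without replicate 2 of H3A110Cgsh1Δ. It was lower in each H3A110Cgsh1Δ library, and H3A110C replicate 3 was well above the other H3A110C libraries. Its promoter holds the Zap1 motif, ACCTT and AAGGT with any base between them, which is found before 9 of 5986 genes (0.15%). The motif lies before 1 of 226 genes called lower (0.442%), 0 of 256 called higher and 8 of 5046 not called (0.159%). Of the 7 zinc genes 1 holds it, so this site does not speak to the response. It is shown in capitals.
ZRT1: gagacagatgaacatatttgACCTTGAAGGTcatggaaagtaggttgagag
In R64 this is chrVII:20754-20804 on the plus strand, upstream of ZRT1. Of 10 copper genes 3 were higher, the vacuolar copper exporter CTR2, the metallothionein-like CRS5 and the chaperone CCS1, by 1.31 ± 0.10, 0.90 ± 0.22 and 0.55 ± 0.10, and 2 were lower, the importer CTR1 and the mitochondrial chaperone COX17, by 0.76 ± 0.16 and 0.76 ± 0.10 (edgeR adjusted p from 0.000143 to 0.0424). CTR2 had 156, 147 and 162 CPM in H3A110Cgsh1Δ, against 59.6, 64.3 and 62.3 CPM in H3A110C, far apart. The manganese transporter gene SMF2 rose by 0.55 ± 0.11 (edgeR adjusted p = 0.0152). CTR2 and COX17 kept their calls in each fit that left out 1 library. ZRT1 lost its call without H3A110Cgsh1Δ replicate 3 (log2 fold change −1.66 to −1.08 over the 6 fits, edgeR adjusted p up to 0.0569). CCS1 lost its call without H3A110C replicate 1 (log2 fold change 0.51 to 0.60 over the 6 fits, edgeR adjusted p up to 0.0696). SMF2 lost its call without H3A110Cgsh1Δ replicate 3 or H3A110C replicate 1 or 2 (log2 fold change 0.49 to 0.63 over the 6 fits, edgeR adjusted p up to 0.0959). CRS5 lost its call without H3A110Cgsh1Δ replicate 1 or H3A110C replicate 1, 2 or 3 (log2 fold change 0.74 to 1.08 over the 6 fits, edgeR adjusted p up to 0.136). CTR1 lost its call without any 1 library other than H3A110Cgsh1Δ replicate 2 (log2 fold change −0.90 to −0.62 over the 6 fits, edgeR adjusted p up to 0.0896). CRS5 also lost its call with thinned counts (edgeR adjusted p = 0.0538).

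In ergosterol synthesis ERG27, ERG13 and HMG1 rose by 0.77 ± 0.13, 0.53 ± 0.093 and 0.48 ± 0.11 and ERG1, squalene epoxidase, fell by 0.75 ± 0.10 (edgeR adjusted p = 0.0103, 0.0109, 0.0321 and 0.00265), out of 24 genes. Without replicate 2 of H3A110Cgsh1Δ 9 of these were higher and 3 lower, beside 906 and 840 of all 5714 genes tested. In purine synthesis 4 of 13 genes were lower, led by ADE17 and ADE1 at −0.91 ± 0.11 and −0.64 ± 0.12 (edgeR adjusted p = 0.0022 and 0.0123). With DESeq2 6 purine genes were lower and 1 higher, and without replicate 2 of H3A110Cgsh1Δ 10 were lower and 1 higher. None of 11 histone genes was called by edgeR, but 4 were higher without replicate 2 of H3A110Cgsh1Δ and 1 with DESeq2. The genes that carry the substitution, HHT1 and HHT2, had log2 fold changes of 0.39 ± 0.13 and 0.06 ± 0.11 (edgeR adjusted p = 0.112 and 0.766). In each of them 87.8% of the 50-base windows are unique in the genome, so reads may be shared with near-identical copies. HHT1 had 900.3, 764 and 848 CPM in H3A110Cgsh1Δ, against 676, 524 and 712 CPM in H3A110C, with no overlap although it was not called. MIC19, a subunit of the MICOS complex of the inner mitochondrial membrane, had 47.8, 58.4 and 54.2 CPM in H3A110Cgsh1Δ, against 78.6, 64.6 and 76.6 CPM in H3A110C (log2 fold change −0.47 ± 0.12, edgeR adjusted p = 0.0563), and its partner MIC60 fell by 0.44 ± 0.10 (edgeR adjusted p = 0.0326). MIC60 was the only call among 6 MICOS genes, of which 3 were lower without replicate 2 of H3A110Cgsh1Δ. ERG1 and ADE17 kept their calls in all 6 fits without 1 library. ADE1 lost its call without H3A110Cgsh1Δ replicate 3 or H3A110C replicate 3 (log2 fold change −0.70 to −0.51 over the 6 fits, edgeR adjusted p up to 0.0538). ERG27 lost its call without H3A110Cgsh1Δ replicate 3 or H3A110C replicate 1 or 2 (log2 fold change 0.71 to 0.93 over the 6 fits, edgeR adjusted p up to 0.0742). ERG13 lost its call without H3A110Cgsh1Δ replicate 3 or H3A110C replicate 2 or 3 (log2 fold change 0.47 to 0.59 over the 6 fits, edgeR adjusted p up to 0.0606). MIC60 lost its call without H3A110Cgsh1Δ replicate 3 or H3A110C replicate 1, 2 or 3 (log2 fold change −0.49 to −0.35 over the 6 fits, edgeR adjusted p up to 0.133). HMG1 lost its call without any 1 library other than H3A110Cgsh1Δ replicate 2 (log2 fold change 0.44 to 0.57 over the 6 fits, edgeR adjusted p up to 0.136).

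GSH1 loss was next set beside the same deletion in cells with unaltered histone H3, where 709 of 5678 genes (12.5%) were higher and 727 (12.8%) lower in gsh1Δ than in WT. The 2 comparisons share no library. Of 259 genes higher in H3A110C and tested in both, 212 were also higher in gsh1Δ, which is 81.9% of the H3A110C calls and 30% of the WT calls, and of 229 lower genes 183 were, which is 79.9% and 25.2%. The shares of WT calls rest on the number of H3A110C calls, which was 906 higher and 840 lower without replicate 2 of H3A110Cgsh1Δ. A gene called only in WT is thus not shown to be unchanged in H3A110C. HRP1 and MEP3 were called in opposite directions. HRP1 kept its call in H3A110C in all 6 fits without 1 library. MEP3 fell by 0.49 ± 0.12 in H3A110C (edgeR adjusted p = 0.0401). It lost that call without H3A110Cgsh1Δ replicate 1 or H3A110C replicate 1, 2 or 3 (log2 fold change −0.60 to −0.38 over the 6 fits, edgeR adjusted p up to 0.146). The medians of the genes called in H3A110C were 0.94 in that background and 0.95 in WT for higher genes, and −0.62 and −0.60 for lower genes. Because these genes were picked by their calls in H3A110C, the medians do not show whether the responses were of equal size. The lists differed in their medians, which were 2.75 and 3.75 for reductive iron uptake, 4.39 and 5.55 for siderophore genes, −0.54 and −1.07 for Fe-S enzymes, and −0.66 and −0.81 for the TCA cycle, in H3A110C and in WT. These medians were not tested against each other, and a list median can fall on different genes in the 2 backgrounds. The siderophore median was that of FIT1 in H3A110C and of ARN1 in WT. The medians of the per-gene log2 differences, H3A110C minus WT, were −0.69, −0.08, 0.45 and 0.39 for these lists in that order.

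Whether single iron genes responded differently in the 2 backgrounds depended on the setting. Of the 34 iron genes of the uptake, use and regulator lists, 0 were called by edgeR in the test of the difference, although 14 had an unadjusted p below 0.05 and 26 had a lower log2 change in H3A110C than in WT. DESeq2 called 7 genes, each with the lower change in H3A110C, namely FIT1, FRE1, CCC2, FTH1, COT1, AFT2 and YAP5. Without replicate 2 of H3A110Cgsh1Δ edgeR called 7, which were FIT1, FRE1, CCC2, FTH1, AFT2, FRE6 and FTR1, again all in that direction. AFT2 and FTH1 were called with a replicate block and CCC2 without gsh1Δ replicate 2, and the other alternatives called none. The log2 difference of FIT1 was −1.62 ± 0.40 with all libraries (edgeR adjusted p = 0.093), −1.62 ± 0.38 with DESeq2 (DESeq2 adjusted p = 0.00341) and −1.43 ± 0.36 without replicate 2 of H3A110Cgsh1Δ (edgeR adjusted p = 0.0393). That of FRE1 was −1.31 ± 0.35 with all libraries (edgeR adjusted p = 0.119) and −1.65 ± 0.27 without that library (edgeR adjusted p = 0.00661). The summed share of the 15 uptake genes was 2.71%, 2.61% and 2.98% in H3A110Cgsh1Δ, against 0.0943%, 0.173% and 0.123% in H3A110C. It was 4.85%, 4.21% and 4.77% in gsh1Δ, against 0.174%, 0.151% and 0.131% in WT. All 3 gsh1Δ libraries thus lay above all 3 H3A110Cgsh1Δ libraries. The sum is weighted to abundant genes and does not measure the change of each gene. FIT3 alone had a mean of 9885 CPM in H3A110Cgsh1Δ and 17973 CPM in gsh1Δ. Its means in H3A110C and WT were 134 and 230 CPM, and its log2 difference was −0.08 ± 0.34 (edgeR adjusted p = 0.944).

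**Figure D4:**
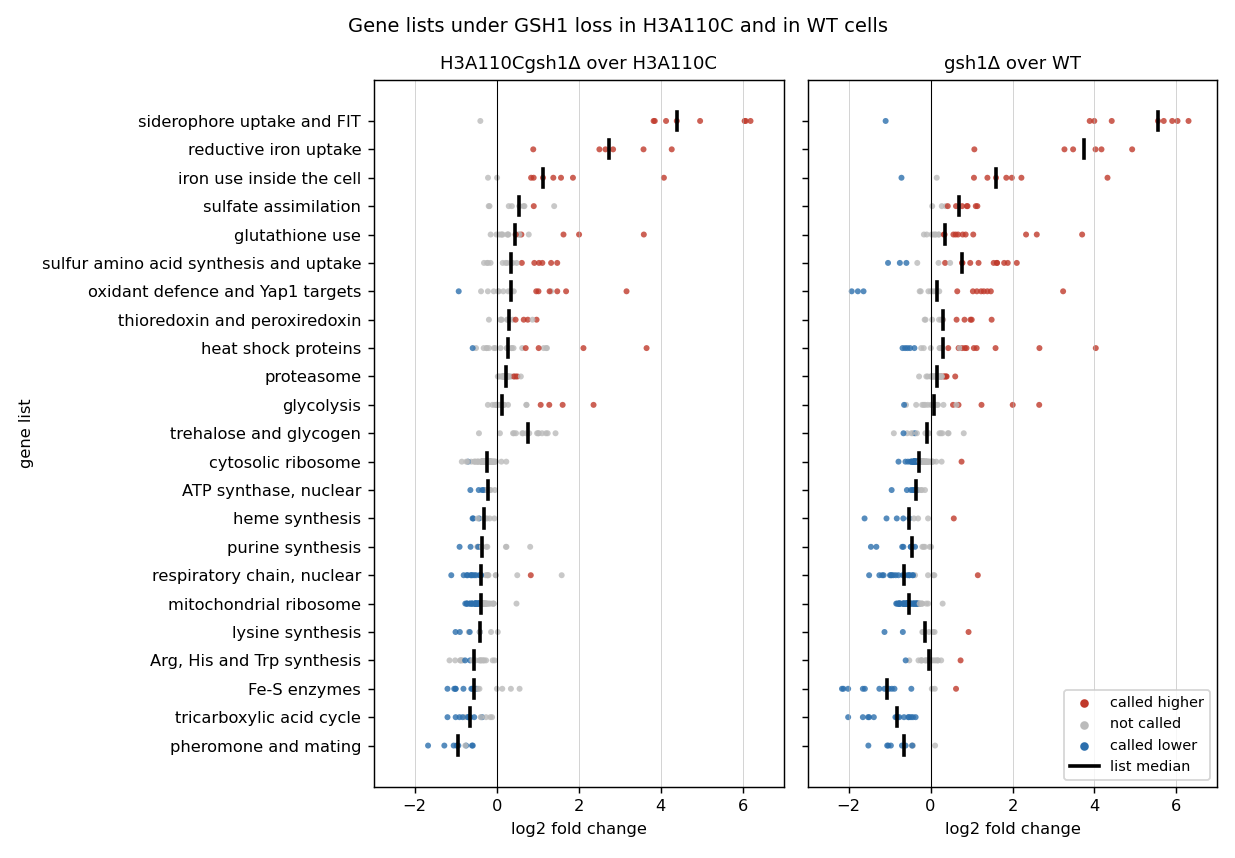
Log2 fold change after GSH1 loss (horizontal axis) in the H3A110C background on the left and the WT background on the right, with 1 list per row, 1 point per gene coloured by its call and a black tick at the list median. The medians of the siderophore and reductive iron uptake lists lie farthest to the right, and those of the Fe-S enzyme, TCA cycle and mating lists lie to the left of 0 in both backgrounds.

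The interaction test, the change in H3A110C minus the change in WT, called 21 of 5751 genes (0.365%), 13 higher and 8 lower, at an edgeR adjusted p below 0.05, and 804 had an unadjusted p below 0.05. LEU1 differed most (log2 difference 2.15 ± 0.28, edgeR adjusted p = 0.0107): it had 283, 286 and 258 CPM in H3A110Cgsh1Δ, against 239, 286 and 293 CPM in H3A110C. LEU1 had 69.04, 115 and 73.4 CPM in gsh1Δ, against 474, 377 and 280.4 CPM in WT. BIO2 (log2 difference 1.72 ± 0.26, edgeR adjusted p = 0.0178) had 92.6, 63.7 and 66.8 CPM in H3A110Cgsh1Δ, against 93.8, 89.5 and 121 CPM in H3A110C. BIO2 had 19.7, 30.05 and 23.1 CPM in gsh1Δ, against 100.2, 106 and 122 CPM in WT. These Fe-S enzyme genes were thus low in gsh1Δ cells alone, where their libraries lay below those of the other 3 strains. URA1, dihydroorotate dehydrogenase (log2 difference 1.70 ± 0.25, edgeR adjusted p = 0.0178), had 738, 1025 and 687 CPM in H3A110Cgsh1Δ, against 751, 527 and 806 CPM in H3A110C. URA1 had 363, 433 and 354 CPM in gsh1Δ, against 1162, 902 and 1100.05 CPM in WT. The peroxisomal catalase gene CTA1 (log2 difference 1.56 ± 0.26, edgeR adjusted p = 0.0274) had 136, 141 and 108 CPM in H3A110Cgsh1Δ, against 164, 129.7 and 206 CPM in H3A110C. CTA1 had 79.4, 81.9 and 88.6 CPM in gsh1Δ, against 408, 269 and 273 CPM in WT. For both, gsh1Δ libraries were the lowest of the 12 and the WT mean was the highest of the 4 strains. HRP1, an RNA-binding protein of mRNA 3′-end formation (log2 difference 1.47 ± 0.23, edgeR adjusted p = 0.0186), had 373, 275 and 329.8 CPM in H3A110Cgsh1Δ, against 194, 177 and 169.9 CPM in H3A110C. HRP1 had 135, 149 and 189 CPM in gsh1Δ, against 295, 229 and 201 CPM in WT, so it was higher in H3A110Cgsh1Δ than in H3A110C and lower in gsh1Δ than in WT.

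In the lower direction GCV2 (log2 difference −1.20 ± 0.16, edgeR adjusted p = 0.0107) had 178, 191 and 183 CPM in H3A110Cgsh1Δ, against 735, 771 and 659 CPM in H3A110C. GCV2 had 372, 306 and 309.8 CPM in gsh1Δ, against 505, 637 and 541 CPM in WT, and GCV1 (log2 difference −1.15 ± 0.22, edgeR adjusted p = 0.0459) had 134, 93.8 and 135 CPM in H3A110Cgsh1Δ, against 376, 387 and 326 CPM in H3A110C. GCV1 had 235, 207 and 187 CPM in gsh1Δ, against 229.8, 314 and 307 CPM in WT. The lowest levels of both were in H3A110Cgsh1Δ and the highest in H3A110C. LYS20, a homocitrate synthase (log2 difference −1.32 ± 0.22, edgeR adjusted p = 0.0274), had 157, 231 and 185 CPM in H3A110Cgsh1Δ, against 256, 258 and 241 CPM in H3A110C. LYS20 had 318, 346 and 304 CPM in gsh1Δ, against 129.8, 192 and 190.2 CPM in WT, but only 62.2% of its 50-base windows are unique, so reads may be shared with LYS21. TMT1 (log2 difference −1.19 ± 0.22, edgeR adjusted p = 0.0367), a methyltransferase, had 105, 154 and 121 CPM in H3A110Cgsh1Δ, against 61.3, 81.8 and 77.1 CPM in H3A110C. TMT1 had 231, 181 and 203 CPM in gsh1Δ, against 50.4, 46.99 and 58.3 CPM in WT. CAR1, arginase (log2 difference −1.01 ± 0.19, edgeR adjusted p = 0.0367), had 288, 275 and 261 CPM in H3A110Cgsh1Δ, against 238, 234 and 265 CPM in H3A110C. CAR1 had 375, 404 and 359 CPM in gsh1Δ, against 134, 161 and 209 CPM in WT. LYS20, TMT1 and CAR1 were highest in gsh1Δ cells and had their lowest mean in WT. Their WT means were 171, 51.9 and 168 CPM, against 252, 73.4 and 246 CPM in H3A110C. The number of calls rested on single libraries: 150 higher and 143 lower without replicate 2 of H3A110Cgsh1Δ, 3 and 1 without its replicate 1, and 8 and 7 without its replicate 3. No gene was called by edgeR without H3A110C replicate 1, where 722 had an unadjusted p below 0.05, or without gsh1Δ replicate 1, where 599 had, so every difference named above lost its call there. The counts were 2 and 1 without H3A110C replicate 2 or gsh1Δ replicate 3, and 8 and 6, 8 and 5, and 7 and 4 without H3A110C replicate 3, WT replicate 1 and WT replicate 3.

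**Figure D5:**
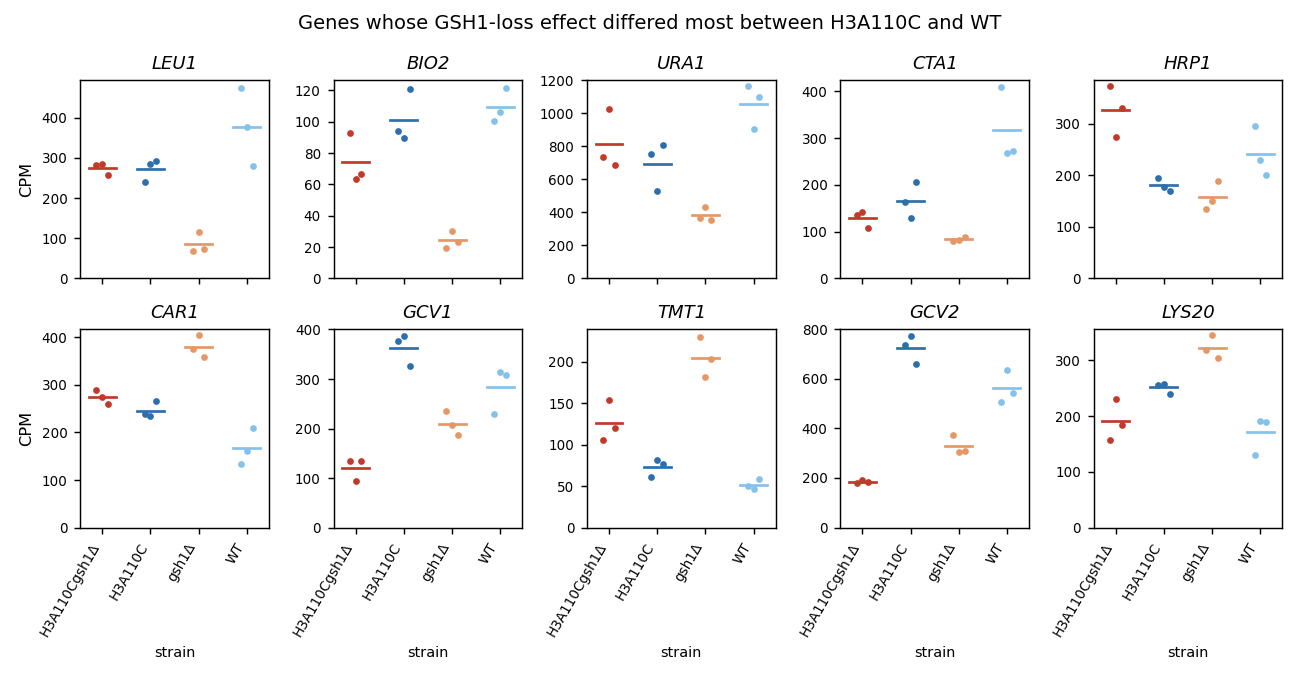
Level (vertical axis, CPM, linear from 0) of the 5 genes with the largest called difference in each direction in the response to GSH1 loss, with 1 panel per gene, 3 libraries per strain as points and lines at the strain means. LEU1, BIO2, URA1, CTA1 and HRP1 were called lower in gsh1Δ than in WT and were not called lower in H3A110Cgsh1Δ than in H3A110C, and GCV1 and GCV2 were lowest in H3A110Cgsh1Δ.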

How the data were processed

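Poly(A)-selected, stranded libraries of 3 H3A110Cgsh1Δ and 3 H3A110C samples were compared, with 3 gsh1Δ and 3 WT libraries for the difference between backgrounds. The deposited values were raw counts per gene, which the authors obtained by aligning reads with HISAT2 to the R64-1-1 assembly and counting over 6692 open reading frames with featureCounts. Versions are not given in the sources used here, nor how reads with several matches were counted. Columns of other media and strains were not used here. Counts were tested with edgeR 4.0.16 in R 4.3.3 (glmQLFit and glmQLFTest, TMM scaling, filterByExpr, Benjamini-Hochberg adjustment over all genes tested, threshold 0.05), each pair of strains in a fit of its own, and the interaction over all 12 libraries. CPM were computed from the counts on 1 TMM scale over the 12 libraries, and the limit for a gene at 0 was 3 counts. Counting intervals and limits cover counting error only. Alternatives were DESeq2 1.42.0, its size factors, total counts, other count filters, a replicate block, all libraries in 1 fit, thinned counts and leaving out each library. Scripts were tested on simulated data. Promoters of 500 bases were read from the RefSeq R64 genome, where 6008 of the gene identifiers matched. Named genes were the 2 to 6 largest called changes of each list and defining members of the pathway, strain checks, the 10 largest rises and falls at 10 CPM or more, and the 5 largest called interactions in each direction. Some lists have fewer called genes, and others named are said to be so. A gene that the rule names is not reported here and was left out of its list. The members and lists were chosen with earlier results of these data known.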

Additional observations from a re-analysis of the deposited data

Results flagged for a closer look

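The response to GSH1 loss differed between the H3A110C and WT backgrounds, by edgeR's test of the interaction term over 12 libraries, for 13 genes with a higher and 8 with a lower change in H3A110C. The 5 largest differences in the higher direction were those of LEU1 at 2.15, BIO2 at 1.72, URA1 at 1.70, CTA1 at 1.56 and HRP1 at 1.47 on the log2 scale. The 5 largest in the lower direction were those of LYS20 at −1.32, GCV2 at −1.20, TMT1 at −1.19, GCV1 at −1.15 and CAR1 at −1.01. The number of such genes was 0 in both directions when H3A110C replicate 1 or gsh1Δ replicate 1 was left out, and 150 and 143 without H3A110Cgsh1Δ replicate 2.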

How the results depend on the processing

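The counts of 261 higher and 229 lower genes stayed within 1.5 times under every alternative other than leaving out a library, except that a fit of all 12 libraries gave 449 higher genes. Leaving out 1 library gave 107 to 906 higher and 56 to 840 lower genes, and for gsh1Δ against WT 463 to 625 and 437 to 694. All 490 genes kept their direction wherever an alternative gave a value. Of 1357 values for 151 named called genes under the 9 other alternatives, 1348 kept their call and 9 lost it, and with 1 library left out 656 of 906 kept it. The 13 higher and 8 lower interaction genes became 75 and 76 with DESeq2 and 35 and 37 with a replicate block, and ranged over 0 to 150 and 0 to 143 with 1 library left out. The replicate block also gave 380 higher and 311 lower genes for the main comparison. Same-numbered H3A110Cgsh1Δ and H3A110C libraries had correlations of 0.025, 0.347 and 0.165 in their deviations from the strain means. Their mean was 0.179, against −0.088 for libraries of different number. The main fits left the libraries unpaired, and these values do not settle whether the numbers pair them. Replicates 2 and 3 matched best with their own number and replicate 1 with replicate 3. Genes near 0 that were not called changed sign: LEU1 to −0.006 with total counts only and over −0.076 to 0.0714 with 1 library left out, MRS3 to −0.0094 with thinned counts and over −0.0377 to 0.0577, HHT2 over −0.009 to 0.1467, GRX3 over −0.1052 to 0.0139 and ISU1 over −0.1821 to 0.003. The cause was not tested in any of these cases. The list counts without replicate 2 of H3A110Cgsh1Δ or with DESeq2, the iron gene counts under each alternative and the alternatives for gsh1Δ against WT were chosen after seeing the data.

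With 3 libraries per strain, and 1 library of H3A110Cgsh1Δ apart from the others, a gene that was not called is not shown to be unchanged. Calls rest on the spread of 1 strain per genotype. Genes with fewer than 3 counts per library, at most 0.880 CPM in these 6 libraries, are below what the depth can measure. CPM are shares of the RNA, so a change in total RNA per cell would not be seen.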
